A study of Mus musculus with 6 samples.

Results

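The genes described here are Cap1 and 9 other genes of actin filament turnover: the cofilins Cfl1 and Cfl2, the cofilin partner Wdr1, profilin 1 (Pfn1), thymosin beta 4 (Tmsb4x), the cytoplasmic actins Actb and Actg1, the capping protein subunit Capzb and the Arp2/3 subunit Arpc2. They were taken by gene symbol, and all 10 were found among the 12023 genes of the count table. Cap1 was put on the list because it differed between the groups in these same libraries, so its own difference is given as a description and not as a test. The other 9 were added to ask whether Cap1 differs alone among actin regulators. The samples were normal mammary fibroblasts, that is, connective tissue cells of the mammary fat pad, from healthy females of the inbred strains BALB/c and C57BL/6. No transgene or induced mutation is named for either group. Mice were 8 to 12 weeks old per the extraction protocol, though the growth protocol gives 8 weeks, and the cells grew for 4 days on a collagen-coated plate before RNA was taken. Each strain gave 3 biological replicates, and the sources used here do not say whether a replicate pooled several animals. The design text names a magnetic isolation step without its target, so cells other than fibroblasts may remain.

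Actin filaments grow by adding monomers at 1 end and lose them at the other, and a moving or contracting fibroblast rebuilds its filaments all the time. Cofilin binds and severs the older, ADP-bound part of a filament, and cyclase-associated protein 1, the product of Cap1, works with it to strip subunits from filament ends and to recharge the released monomers with ATP. Profilin then carries ATP-actin to growing ends, thymosin beta 4 keeps a reserve of monomers, capping protein stops growth at filament ends, and the Arp2/3 complex starts new branches.

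Expression was measured as counts of reads from the 3′ ends of polyadenylated RNA, with library totals of 1035485 to 4665896. Levels are given as CPM, the usual depth-scaled count, after TMM scaling (a correction for differences in composition between libraries). The 10 genes together took 2.04% to 3.27% of all counts, with Actb at 0.848% to 2.06%. Fibroblast markers were present in every library, with a summed BALB/c level of 9453 to 18902 CPM and a summed C57BL/6 level of 4538 to 20673 CPM (10 of 11 markers in the table, Lum not among them). Epithelial markers were present too, between 1696 and 10293 CPM in the BALB/c libraries and between 2854 and 15702 CPM in the C57BL/6 libraries (9 of 10 in the table, Trp63 not among them). In such bulk samples fewer cells of a type and less RNA per cell cannot be told apart. C57BL/6 replicate 1 stood apart from the other libraries: 38.8% of tested genes lay at least 1 log2 unit away from the mean of the other C57BL/6 libraries, and it had the lowest summed fibroblast and the highest summed epithelial marker level. Single markers did not all follow these sums. Pdgfrb was highest there, at 343 CPM, and Epcam stood at 168 CPM there against 364 CPM in BALB/c replicate 2. Members' differences that moved by over 1.5 times or changed sign without C57BL/6 replicate 1 are therefore given with and without this library. All 9 smooth muscle and pericyte markers were in the table. They summed to 3725, 2825 and 3278 CPM in BALB/c replicates 1, 2 and 3 and to 6542, 5611 and 3999 CPM in C57BL/6 replicates 1, 2 and 3, without overlap. Tagln took the largest part of each sum, and its own libraries overlapped, with 3068 CPM in BALB/c replicate 1 and 2959 CPM in C57BL/6 replicate 3. Cspg4, Mcam, Acta2, Myh11 and Des overlapped too, Mcam with a log2 difference of 0.07, and Rgs5 was below the filter. Of all tested genes 11.4% did not overlap between the strains. Picked out after their values were seen, the markers calponin (Cnn1) and smooth muscle actin Actg2 had adjusted p of 0.239 and 0.278 in edgeR and 0.00145 and 0.00611 in DESeq2, both lower in BALB/c. Their part in the values of the actin turnover genes was not tested.

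Cap1 was high in every BALB/c library and low in every C57BL/6 library. It stood at 455, 487 and 566 CPM in BALB/c replicates 1, 2 and 3 and at 14.5, 39.1 and 33.9 CPM in C57BL/6 replicates 1, 2 and 3. The means were 503 ± 57.2 CPM and 29.2 ± 12.9 CPM (SD, n = 3 each). Within BALB/c the replicates lay close together, and the C57BL/6 libraries lay below all of them. The underlying counts were 682, 1362 and 585 in BALB/c and 19, 50 and 166 in C57BL/6. The log2 difference, BALB/c minus C57BL/6, was 4.10 with a standard error of 0.40 and a 95% interval of 3.15 to 5.04, which placed Cap1 at rank 21 by size among 8752 tested genes. Of the 9 members that could be tested, 1 passed an adjusted p of 0.05 in edgeR's quasi-likelihood test, namely Cap1, which was higher in BALB/c. Of all tested genes 0.206% passed, 0.0686% with a higher and 0.137% with a lower level in BALB/c. Since Cap1 was chosen from this contrast, nothing is read from that count. Without C57BL/6 replicate 1 the log2 difference was 3.79 and the call was kept. It was lost, with log2 differences of 4.16, 4.12, 4.00, 4.33 and 4.21, when BALB/c replicates 1, 2 or 3 or C57BL/6 replicates 2 or 3 were left out.

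The same contrast can be read without any scaling by setting Cap1 against Cfl1, its partner in filament disassembly. Per 100 counts of Cfl1 there were 12.1, 13.6 and 13.9 counts of Cap1 in BALB/c replicates 1, 2 and 3. In C57BL/6 replicates 1, 2 and 3 there were 0.350, 1.07 and 1.03. The means were 13.2 ± 0.969 and 0.818 ± 0.406 (SD, n = 3 each), in the same direction and with no overlap. Cap1 was chosen from this contrast, and the highest Cfl1 library was 1.26-fold above the lowest. The ratio therefore largely restates the difference of Cap1 and is given as a description.

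**Figure D1:**
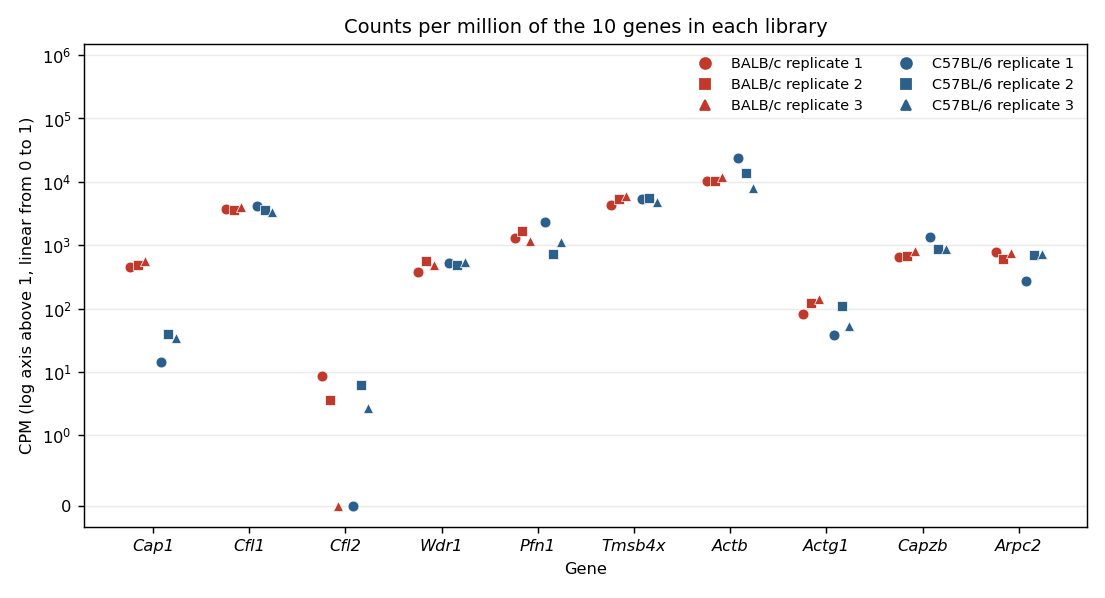
Level of each of the 10 genes in each library, in CPM on a log axis above 1 and a linear axis from 0 to 1, with red symbols for BALB/c and blue for C57BL/6 and a symbol shape per replicate. Cap1 sits at 455 to 566 CPM in BALB/c and at 14.5 to 39.1 CPM in C57BL/6, while the strains overlap in 8 of the other 9 genes and come close in Capzb.

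Cap1 lies on the minus strand at chr4:122859047-122886056 (GRCm38, GENCODE vM21), and its 3′ end, where these libraries take their reads, runs into that of Ppt1. Ppt1, which encodes a lysosomal palmitoyl thioesterase, lies on the plus strand at chr4:122836242-122859175. The exons of the genes overlap by 129 bases. The longest protein-coding Ppt1 transcript reaches 32 of these, and a transcript annotated for nonsense-mediated decay reaches all 129. Ppt1 has 3 coding transcripts with different 3′ ends, and the reach of the others was not compared. Of 4 coding transcripts of Cap1, 3 end at the same base, so their counts cannot be separated. The last 30 bases of the longest coding transcript of each gene are shown because they are read from the same DNA on opposite strands. Capitals mark the 28 bases that are exact reverse complements of each other.
Cap1 (chr4:122859047-122859076, minus strand): AATAAAGTTAATACCAAACTTGTTTAGTta
Ppt1 (chr4:122859049-122859078, plus strand): ACTAAACAAGTTTGGTATTAACTTTATTct
The poly(A) signal AATAAA opens the Cap1 stretch at its base 1. On the transcript strand, AATAAA is found in the last 30 bases of 51.4% of 21877 coding genes (longest coding transcript each). The sources used here do not say if the authors' counting used the strand, and without it a read from the shared bases cannot be assigned to either gene.

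Ppt1 was low where Cap1 was high. It stood at 42.0, 26.5 and 21.3 CPM in BALB/c replicates 1, 2 and 3 and at 170, 67.2 and 94.9 CPM in C57BL/6 replicates 1, 2 and 3, with no overlap between the strains. Its log2 difference was -1.88 with a standard error of 0.43 (edgeR adjusted p = 0.427, and 0.0169 to 0.992 over 15 alternatives), so it did not pass the threshold in edgeR, though it did in DESeq2 (0.0169) and in limma-voom with quality weights (0.0365). Cap1 made up 91.5%, 94.8% and 96.4% of the counts of both genes in BALB/c replicates 1, 2 and 3, with exact 95% counting intervals of 89.3% to 93.4%, 93.6% to 95.9% and 94.6% to 97.7%. In C57BL/6 replicates 1, 2 and 3 it made up 7.88%, 36.8% and 26.3%, with intervals of 4.81% to 12.0%, 28.7% to 45.5% and 22.9% to 29.9%. Intervals cover counting error only, and reads are not shown to be independent molecules. With the counts of both genes summed, the strains did not overlap. In BALB/c this sum was mostly Cap1, which was chosen from this contrast, so the sum is given as a description. The sum was 497, 514 and 587 CPM in BALB/c replicates 1, 2 and 3 and 184, 106 and 129 CPM in C57BL/6 replicates 1, 2 and 3, with means of 533 ± 48.1 and 140 ± 40.0 CPM (SD, n = 3 each). The log2 difference of the sum was 1.93 with a standard error of 0.28, against 4.10 for Cap1 counted alone, and it did not pass the threshold (edgeR adjusted p = 0.066). The part of the shared 3′ end, and of any mismatch between BALB/c reads and a reference made from C57BL/6, in the Cap1 difference was not tested.

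**Figure D2:**
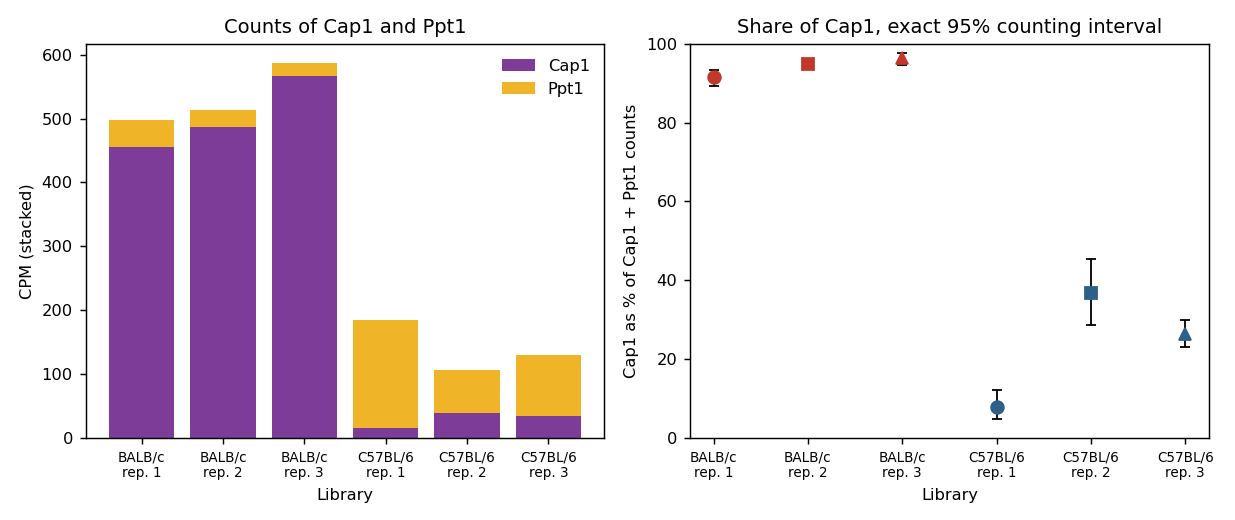
Left, stacked CPM of Cap1 (purple) and Ppt1 (yellow) in each library, and right, Cap1 as a percentage of the counts of both genes with exact 95% counting intervals. Cap1 takes 91.5% to 96.4% in BALB/c and 7.88% to 36.8% in C57BL/6, and the summed level is 497 to 587 CPM against 106 to 184 CPM.

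Of 16 other annotated genes within 250 kb of Cap1, 6 were in the count table and 4 could be tested. Apart from Ppt1 these were Mfsd2a, a transporter of lysophospholipids, Trit1, a tRNA-modifying enzyme, and Ppie, a spliceosomal cyclophilin. Their log2 differences were -0.36 ± 0.61, -0.06 ± 0.38 and -0.01 ± 0.47 (SE), with edgeR adjusted p of 0.954, 0.986 and 0.998, and the sign of Trit1 and of Ppie turned under other scalings. Mycl and Bmp8b were below the filter on low counts, with at most 55 and 6 counts in a library.

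The 250 bases before the start site of Cap1, from RefSeq on GRCm38.p6 and hence the C57BL/6 reference, are given for the gene with the largest difference of the 10.
Cap1 (chr4:122886077-122886326, minus strand): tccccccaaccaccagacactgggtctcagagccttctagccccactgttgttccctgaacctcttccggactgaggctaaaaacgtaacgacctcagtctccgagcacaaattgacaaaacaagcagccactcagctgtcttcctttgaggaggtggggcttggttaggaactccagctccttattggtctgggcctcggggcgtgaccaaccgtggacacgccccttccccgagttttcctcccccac
The stretch was searched for the CArG box, the palindromic site of serum response factor in many actin genes, which was not among these letters. Among the 9 members with a RefSeq window of this length (Actb had none in the table used) 1 held the box, Actg1. Of 32851 such windows in all, 1.47% held it.

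Cofilin 1 was the steadiest of the 10 genes. Cfl1, the main non-muscle cofilin (chr19:5490455-5495201), stood at 3762, 3590 and 4069 CPM in BALB/c replicates 1, 2 and 3 and at 4150, 3641 and 3285 CPM in C57BL/6 replicates 1, 2 and 3. The highest library was 1.26-fold above the lowest, and the strains overlapped. The log2 difference was 0.04 ± 0.20 (SE), with a 95% interval of -0.43 to 0.52 (edgeR adjusted p = 0.976), and without C57BL/6 replicate 1 it was 0.13. A 2-fold difference of Cfl1 in either direction lies outside this interval. Exons of Cfl1 overlap those of Snx32, a sorting nexin, by 468 bases on the opposite strand, and Snx32 stood at 5.73 to 8.00 CPM over the 6 libraries. One annotated copy, Gm6180, matches the last 500 bases of a Cfl1 transcript with at least 95% identity over 153 bases.

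Cofilin 2 was near the limit of detection. Cfl2, the muscle form (chr12:54858809-54862877), had 13, 10 and 0 counts in BALB/c replicates 1, 2 and 3 and 0, 8 and 13 counts in C57BL/6 replicates 1, 2 and 3, and it was below the filter for testing. A count of 0 allows up to 3 counts, or 2.90 CPM in BALB/c replicate 3 and 2.29 CPM in C57BL/6 replicate 1. Zeros thus occurred in both strains, and a strain difference was not detectable at this depth.

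Wdr1, also called AIP1, which speeds up severing by cofilin (chr5:38526813-38563221), stood at 381, 557 and 493 CPM in BALB/c replicates 1, 2 and 3. In C57BL/6 replicates 1, 2 and 3 it stood at 515, 489 and 542 CPM. The C57BL/6 values all fell within the range of the BALB/c values. The log2 difference was -0.11 ± 0.23 (SE), with a 95% interval of -0.66 to 0.44 (edgeR adjusted p = 0.956).

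The monomer binders overlapped between strains as well. Tmsb4x (chrX:167207093-167209315) stood at 4256, 5291 and 5917 CPM in BALB/c replicates 1, 2 and 3 and at 5410, 5475 and 4771 CPM in C57BL/6 replicates 1, 2 and 3. Its log2 difference was -0.02 ± 0.22 (SE), with a 95% interval of -0.52 to 0.48 (edgeR adjusted p = 0.995), and without C57BL/6 replicate 1 it was 0.0036. Pfn1 (chr11:70651850-70654644) stood at 1279, 1679 and 1160 CPM in BALB/c replicates 1, 2 and 3 and at 2312, 717 and 1107 CPM in C57BL/6 replicates 1, 2 and 3. The highest and the lowest Pfn1 library were both C57BL/6, so the spread within that strain covered all of BALB/c. The log2 difference of Pfn1 was -0.01 ± 0.43 (SE), with an interval of -1.02 to 1.01 (edgeR adjusted p = 0.999), and without C57BL/6 replicate 1 it was 0.58. A 2-fold difference of Pfn1 therefore cannot be set apart from none.

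The actins varied mostly within C57BL/6. Actb, beta-actin (chr5:142903115-142906754), stood at 10502, 10223 and 11798 CPM in BALB/c replicates 1, 2 and 3 and at 23998, 13836 and 8075 CPM in C57BL/6 replicates 1, 2 and 3. The BALB/c libraries lay between C57BL/6 replicates 2 and 3, and C57BL/6 replicate 1 was above all others. The log2 difference was -0.50 ± 0.38 (SE), with an interval of -1.39 to 0.39 (edgeR adjusted p = 0.954). Without C57BL/6 replicate 1 it was -0.021, and the highest Actb library was 1.71-fold above the lowest, against 2.97-fold with all libraries. Without C57BL/6 replicate 3 the log2 difference was -0.82. Actg1, gamma-actin (chr11:120345690-120348542), stood at 82.0, 121 and 141 CPM in BALB/c replicates 1, 2 and 3 and at 38.2, 111 and 52.6 CPM in C57BL/6 replicates 1, 2 and 3. C57BL/6 replicate 2 lay among the BALB/c libraries and the other C57BL/6 libraries below them. The log2 difference of Actg1 was 0.78 ± 0.43 (SE), with an interval of -0.24 to 1.79 (edgeR adjusted p = 0.954). It was 0.51 without C57BL/6 replicate 1 and 1.34 without C57BL/6 replicate 2. The transcripts of Actb and Actg1 are 87.8% identical over 1186 bases, but the match ends 675 and 692 bases before their 3′ ends. Counts of Actg1 are uncertain for another reason. Within the last 500 bases of an Actg1 transcript, 15 annotated copies match at 95% identity or more. The matches run from 84 bases, for miRNA genes, to all 500, where 1 copy has no mismatch. None of the 15 was in the count table. For Actb there were 3 such copies.

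The filament-end and branch-point members did not pass the threshold either. Capzb, the beta subunit of capping protein (chr4:139192899-139291818), stood at 657, 664 and 819 CPM in BALB/c replicates 1, 2 and 3 and at 1335, 883 and 860 CPM in C57BL/6 replicates 1, 2 and 3. Each BALB/c library lay below each C57BL/6 library, though BALB/c replicate 3 and C57BL/6 replicate 3 were close. Among the 8 tested members other than Cap1 it was the 1 gene whose strains did not overlap, and the libraries of the strains did not overlap in 11.4% of all tested genes, 6.22% with BALB/c lower. The log2 difference of Capzb was -0.52 ± 0.26 (SE), with an interval of -1.14 to 0.09 (edgeR adjusted p = 0.954), and without C57BL/6 replicate 1 it was -0.30. Arpc2, a core subunit of the Arp2/3 complex (chr1:74236084-74268209), stood at 784, 599 and 754 CPM in BALB/c replicates 1, 2 and 3 and at 269, 700 and 717 CPM in C57BL/6 replicates 1, 2 and 3. All libraries but C57BL/6 replicate 1 lay within 1.31-fold of each other. Its log2 difference was 0.34 ± 0.39 (SE), with an interval of -0.57 to 1.25 (edgeR adjusted p = 0.954), and without C57BL/6 replicate 1 it was -0.0028.

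Side by side, the log2 differences of the 8 tested members other than Cap1 ran from -0.52 to 0.78, and their 95% intervals spanned -1.39 to 1.79. None of the 8 passed the threshold in edgeR, 0 had an unadjusted p under 0.05, and 0 passed in any of 15 alternatives. Of all tested genes 0.206% passed in edgeR and 3.86% had an unadjusted p under 0.05, so counts of 0 among 8 genes do not set them apart. Of the 8 intervals 3, those of Cfl1, Wdr1 and Tmsb4x, lay within a 2-fold difference in either direction. For the other 5 the intervals reached past 2-fold on at least 1 side, so a difference of that size was not excluded for them.

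To set the 10 genes in their pathway, 98 genes of actin turnover in 10 lists by role were examined, of which 87 were in the count table and 64 could be tested. Cap1 was the single gene of these past the threshold in edgeR. Among the other 63 tested genes 0 passed, in edgeR or in any of the 15 alternatives, DESeq2 among them. Of all tested genes edgeR called 0.206% and DESeq2 0.811%. At such shares a count of 0 does not set these genes, or any single list of them, apart from all tested genes. Of the 63, 3 had an unadjusted p under 0.05, or 4.76%, and 3.86% of all tested genes did. The interval that reached highest was that of Pfn2, the neuronal profilin, which had 0 counts in C57BL/6 replicate 1, at 1.41 ± 1.01 (SE) with an interval up to 3.78 (edgeR adjusted p = 0.954). Its difference was 0.91 without C57BL/6 replicate 1 and 2.25 without C57BL/6 replicate 2. In 23 of the 63 the interval lay within a 2-fold difference. The 55 list genes outside the 10 had 20 log2 differences above 0 and 35 below, with a median of -0.08, and all tested genes had a median of 0.01, 4468 above and 4284 below. Without C57BL/6 replicate 1 the median of the same 55 genes turned to 0.032.

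**Figure D3:**
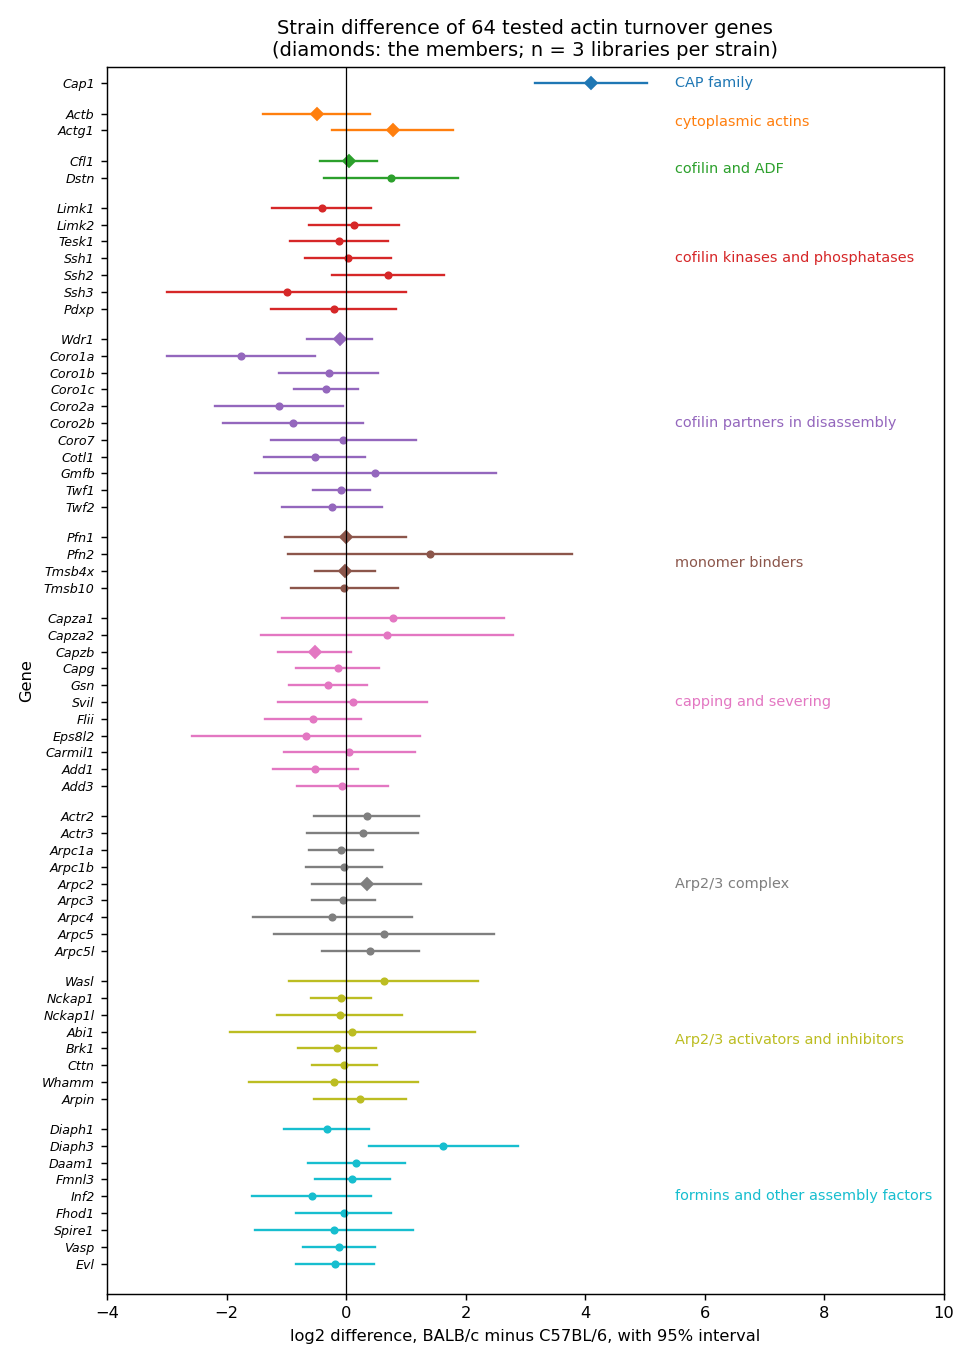
Log2 difference, BALB/c minus C57BL/6, of the 64 tested actin turnover genes by role, with 95% intervals from edgeR (n = 3 libraries per strain) and diamonds for members of the set of 10. The interval of Cap1, which was chosen from this contrast, runs from 3.15 to 5.04, and that of Pfn2 reaches 3.78.

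Among the cofilin group, Cap2, the muscle relative of Cap1, was below the filter, and destrin (Dstn), a cofilin relative, had a log2 difference of 0.75 ± 0.48 (SE). Of 8 kinases and phosphatases that switch cofilin off and on 7 were tested and 0 passed, with -0.12 ± 0.35 for the kinase Tesk1 and -0.41 ± 0.36 for Limk1, LIM kinase 1. Of 11 tested partners of cofilin in disassembly, Wdr1 included, 10 lay below 0 and 0 passed. Of all 8752 tested genes 4284 lay below 0. Cotl1, a coactosin-like protein, had -0.53 ± 0.36 and Coro1b, coronin 1B, had -0.29 ± 0.35. Beside Pfn1, Pfn2 and Tmsb4x, the remaining tested monomer binder, thymosin beta 10 (Tmsb10), had -0.03 ± 0.38. Without C57BL/6 replicate 1 the difference was 0.47 for Dstn, -0.17 for Limk1 and -0.19 for Cotl1. In the same fit it changed sign for Coro1b, Tesk1 and Tmsb10, to 0.12, 0.21 and 0.21. Without BALB/c replicate 3 it was 0.26 for Dstn. The edgeR adjusted p-values of these genes lay between 0.954 and 0.995.

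Of 11 tested capping and severing genes 0 passed, with -0.14 ± 0.30 (SE) for Capg, a gelsolin-like capping protein, and -0.30 ± 0.28 for gelsolin (Gsn). Of 9 tested Arp2/3 subunits 0 passed, with -0.04 ± 0.27 for Arpc1b and 0.28 ± 0.39 for Actr3, which is Arp3. Of 8 tested regulators of the complex 0 passed, with -0.03 ± 0.23 for cortactin (Cttn), which stabilises branches, and -0.16 ± 0.28 for Brk1, a subunit of the WAVE complex. Of 9 tested formins and other assembly factors 0 passed, with -0.12 ± 0.26 for Vasp, which lengthens filaments at the leading edge, and -0.58 ± 0.42 for the formin Inf2, which had -0.17 without C57BL/6 replicate 1. Leaving out C57BL/6 replicate 1 turned the sign for Capg, Arpc1b, Actr3, Brk1 and Vasp, to 0.19, 0.20, -0.076, 0.093 and 0.018. The sign was kept for Gsn and Cttn, at -0.31 and -0.04. In these 4 lists 1 gene had an unadjusted p under 0.05, and under DESeq2 none passed.

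The 3 list genes with an unadjusted p under 0.05, picked out after their values were seen, were Coro1a, Coro2a and Diaph3, and none passed once adjusted. Coro1a, the coronin of blood cells, stood at 10.7, 14.7 and 13.5 CPM in BALB/c replicates 1, 2 and 3 and at 78.7, 21.1 and 33.7 CPM in C57BL/6 replicates 1, 2 and 3, a log2 difference of -1.76 ± 0.53 (SE, edgeR adjusted p = 0.913) that was -1.10 without C57BL/6 replicate 1. All 10 macrophage markers were in the table. They summed to between 625 and 906 CPM in the BALB/c libraries and between 850 and 1650 CPM in the C57BL/6 libraries. C57BL/6 replicate 1 was highest for this sum and for Coro1a, though Ptprc had 0 counts there. Lyz2 took the largest part of each sum and overlapped between the strains, as did Csf1r, Cd14 and Tyrobp. Cd68, C1qa, C1qb and Fcer1g did not overlap, with log2 differences of -0.91, -1.11, -1.76 and -1.08. Of all tested genes 6.22% did not overlap with BALB/c lower. C1qb had an adjusted p of 0.552 in edgeR and 0.0332 in DESeq2. Ptprc and Adgre1 were below the filter. The part of macrophages in the Coro1a values was not tested. Coro2a had a log2 difference of -1.12 ± 0.46 (SE, edgeR adjusted p = 0.954) and the formin Diaph3 one of 1.63 ± 0.53 (edgeR adjusted p = 0.954). Both rest on few counts. In BALB/c replicates 1, 2 and 3 Coro2a had 7, 18 and 4 counts and Diaph3 had 27, 72 and 17. In C57BL/6 replicates 1, 2 and 3 Coro2a had 13, 12 and 68 counts and Diaph3 had 3, 11 and 40.

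C57BL/6 replicate 1 departed from the other C57BL/6 libraries in both directions, among these genes as among all genes. Of the 64 tested genes 16 lay at least 1 log2 unit below and 10 at least 1 above the mean of C57BL/6 replicates 2 and 3, or 40.6% in all, and 38.8% of all tested genes did. In C57BL/6 replicates 2 and 3, each set against the other libraries of its strain, 23.4% and 12.5% of the 64 genes did, and in the BALB/c libraries 3.12% to 9.38%. Subunits of a single complex were split. Arpc5, a subunit of Arp2/3, stood at 16.8 CPM there and at 257 and 262 CPM in C57BL/6 replicates 2 and 3, while Arpc4 of the same complex stood at 779 CPM against 199 and 214. Likewise Capza1, the alpha subunit that pairs with Capzb, stood at 3.06 CPM there against 66.4 and 36.3, while Capzb was at its highest. In BALB/c replicates 1, 2 and 3 Arpc5 stood at 271, 279 and 283 CPM, Arpc4 at 263, 469 and 280 CPM and Capza1 at 68.0, 65.5 and 48.4 CPM. These genes were picked out after their values were seen. Across the 64 genes the deviation of this library went along with the GC content of the transcript, with a Pearson r of 0.73 and a Spearman rho of 0.76, and r was -0.30 to 0.28 in the BALB/c libraries. C57BL/6 replicates 2 and 3, whose deviations are measured against a mean that includes replicate 1, had r of -0.69 and -0.57. Over all 8649 genes with a GC value r was 0.64, -0.55 and -0.51 in C57BL/6 replicates 1, 2 and 3, so the trend was not particular to the actin genes. These correlations are across genes that share a library and are given as a description. Cap1, with a GC content of 50.7%, lay 1.27 log2 units below the other C57BL/6 libraries there. The part of GC content in the strain differences was not tested, and the difference of Cap1 was 3.79 without this library.

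**Figure D4:**
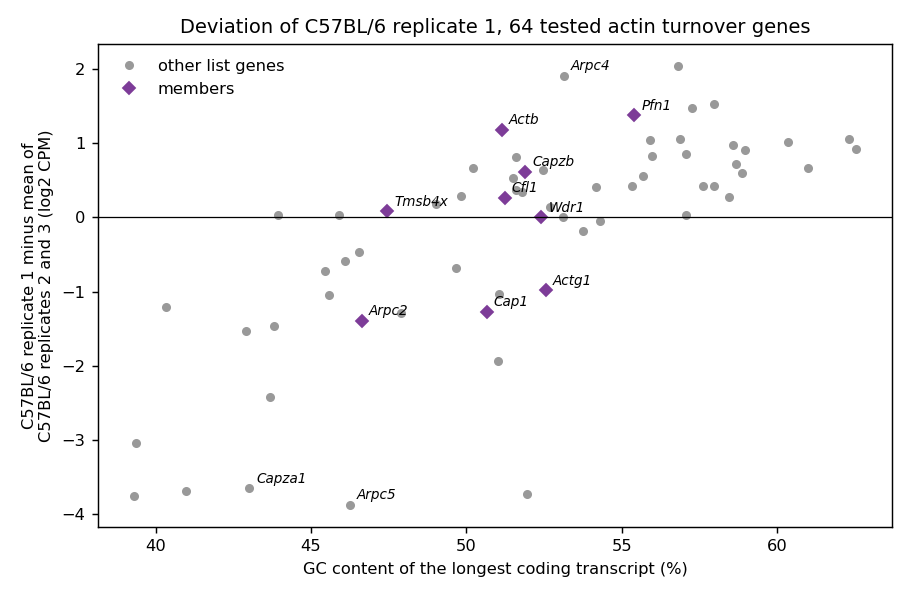
Deviation of C57BL/6 replicate 1 from the mean of C57BL/6 replicates 2 and 3 (log2 CPM) against the GC content of the longest coding transcript, 1 point per tested actin turnover gene, with purple diamonds for members of the set of 10. Points rise from left to right (Pearson r of 0.73 over 64 genes), with Arpc5 and Capza1 far below 0 and Actb, Pfn1 and Arpc4 above it.

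Genes that followed Cap1 across the 6 libraries were sought by the mean absolute distance between centred log2 CPM profiles, over the 4452 other genes whose mean log2 CPM reached 5. The nearest were F2r, the thrombin receptor PAR1, at a distance of 1.00 log2 units, Rarres2, which encodes chemerin, at 1.13, H2-Ab1, an MHC class II chain, at 1.17, Thap12 at 1.19 and Spp1, osteopontin, at 1.19. None of these 5 was an actin turnover gene, and their mean levels were 292 ± 59.6 CPM against 77.2 ± 65.1 CPM, BALB/c first, for F2r and 2559 ± 331 CPM and 938 ± 604 CPM for Spp1 (SD, n = 3 each). Of the other members the nearest was Actg1, at 1.65 and rank 228, and the farthest Capzb, at 2.34 and rank 4007. Because Cap1 was chosen for its strain difference, these distances largely restate the size of that difference and are given as a description.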

How the data were processed

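The submitters' processing notes name the tools STAR 2.4.2a, HTSeq and bcl2fastq and the build mm10. The sources used here do not state settings, annotation, strand use or the treatment of molecular identifiers. The authors deposited raw counts per gene symbol, and no gene in the table stays under 6 counts in every library. Each column was assigned to the sample whose label holds its name. Counts were filtered with filterByExpr, scaled by TMM and fitted with edgeR 4.0.16 in R 4.3.3 (robust quasi-likelihood, strain as the only term, two-sided, Benjamini-Hochberg over 8752 genes, threshold 0.05). The common biological coefficient of variation was 41.1%. The standard error is the log2 difference divided by the square root of F, and intervals are at 95%. DESeq2 1.42.0 and limma 3.58.1 were alternatives. P-values set each strain difference against the spread between libraries, which is estimated with information from all tested genes. The labels call the libraries biological replicates. Pairs of libraries of a strain differed beyond sampling noise (chi-square per degree of freedom of 10.8 or more over 5541 genes). Coordinates are from GENCODE vM21 on GRCm38, which is mm10. Copies were sought with BLAST+ 2.17.0 in the last 500 bases of each coding transcript, at 95% identity over at least 60 bases.

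The members and lists were chosen with earlier results of these data known. Named genes were the 10 members, from each list those past the threshold or else the 2 most abundant others, genes of the table within 250 kb of Cap1, and the 5 genes nearest to its profile. Marker lists also covered endothelial cells (13.6 to 64.9 CPM summed), adipocytes (36.0 to 67.1 CPM, Fabp4 alone), and smooth muscle cells and pericytes.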

Additional observations from a re-analysis of the deposited data

How the results depend on the processing

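Over 15 alternatives the log2 difference of Cap1 lay between 3.79 and 4.33, past the threshold in 9 of them, and no other member or named list gene passed in any. Without a replicate it ranged from 3.79 to 4.33, the count of list genes past the threshold from 0 to 1, and the count of all genes from 0 to 25, against 18 with all libraries. The replicate block, with the repetition number of the labels, gave 0 list genes and 0 genes in all (158 at an unadjusted p under 0.05), with 4.20 for Cap1. Same-numbered libraries did not deviate together (r of -0.42, -0.40 and -0.08), no library correlated best with its own number, and nothing in the labels pairs them. All genes past the threshold numbered 11 with library totals alone, 71 with DESeq2, 3 with limma-voom and 57 with its quality weights. Summing Cap1 and Ppt1 gave 1.93. The cause of these changes was not tested. Signs of small differences that never passed turned as follows. Library totals alone gave 0.13 for Pfn1, 0.063 for Tmsb4x, 0.079 for Tmsb10, 0.064 for Arpc1b, 0.042 for Cttn, 0.022 for Trit1 and 0.11 for Ppie. Upper quartile factors gave 0.084 for Pfn1, 0.048 for Tmsb4x, 0.045 for Tmsb10, 0.038 for Arpc1b, 0.030 for Cttn, 0.0063 for Trit1 and 0.074 for Ppie. A mean of at least 50 counts gave 0.086 for Pfn1, 0.034 for Tmsb4x, 0.032 for Tmsb10, 0.032 for Arpc1b, 0.017 for Cttn and 0.076 for Ppie. Limma-voom gave 0.16 for Pfn1, 0.060 for Tmsb10, 0.0049 for Trit1, 0.22 for Ppie and 0.047 for Arpc4. Quality weights gave 0.33 for Pfn1, 0.25 for Actb, 0.12 for Tmsb4x, 0.057 for Tesk1, 0.61 for Tmsb10, 0.11 for Capg, 0.26 for Arpc1b, 0.037 for Brk1, 0.048 for Trit1, 0.35 for Ppie and 0.53 for Arpc4. The block gave 0.14 for Pfn1, 0.025 for Tmsb10, 0.14 for Ppie and 0.044 for Arpc4. Without a replicate the range was -0.052 to 0.13 for Cfl1, -0.29 to 0.58 for Pfn1, -0.24 to 0.021 for Wdr1, -0.0028 to 0.54 for Arpc2, -0.13 to 0.097 for Tmsb4x, -0.36 to 0.21 for Tesk1, -0.54 to 0.12 for Coro1b, -0.35 to 0.21 for Tmsb10, -0.31 to 0.19 for Capg, -0.19 to 0.20 for Arpc1b, -0.076 to 0.55 for Actr3, -0.15 to 0.11 for Cttn, -0.32 to 0.093 for Brk1, -0.27 to 0.018 for Vasp, -0.24 to 0.052 for Trit1, -0.30 to 0.56 for Ppie and -0.56 to 0.70 for Arpc4. A count of 0 allows up to 2.90 CPM in BALB/c replicate 3, the shallowest library, and 0.612 CPM in the deepest.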
